A study of Mus musculus with 3 samples.

Results

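Fibroblasts with very high type I collagen and Sparc transcripts were picked out of single-cell data from the abdominal dermis of mice. A cell belonged to them when Col1a1, Col1a2 and Sparc together held at least 10% of its UMIs (unique molecular identifiers, each standing for 1 captured transcript). It also had to stay under 4 limits, each a share of its UMIs: Eln and Mfap4 under 0.5%, Ctla2a, Gpx3 and Plac8 under 1%, Ccl2, Ccl7 and Tnfaip6 under 0.5%, and Igfbp2 under 0.2%. By this rule 132 of 6022 kept cells were chosen, and they are called the high cells here and members in the plots. Fibroblasts were the 1367 kept cells with at least 1% of UMIs from Col1a1, Col1a2, Col3a1, Dcn and Lum. All 132 high cells came from 1 library, that of gestation day 16.

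Type I collagen is a triple helix of chains encoded by Col1a1 and Col1a2, and its fibrils carry most of the tensile strength of the dermis. Procollagen chains are modified and folded in the endoplasmic reticulum with the chaperone encoded by Serpinh1, lose their end peptides to enzymes such as those of Adamts2 and Bmp1, and are crosslinked outside the cell by lysyl oxidases. Sparc encodes a secreted collagen-binding glycoprotein that takes part in fibril assembly. Abdominal skin is stretched and enlarged during pregnancy, and dermal fibroblasts make the matrix it needs.

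The series holds 3 dermal libraries of C57BL/6 mice aged 8 to 12 weeks. All carried the genotype Col1a2creERT2; R26H2B EGFP, in which a tamoxifen-activated Cre driven by Col1a2 control sequence acts on a nuclear EGFP reporter; Col1a2 is also a gene of the rule. Non-pregnant mice (NP) had tamoxifen for 3 days and were sampled 48 days later. Mice at gestation day 16 (dpc16) and at day 42 after birth (dpp42) had tamoxifen in pregnancy. With 1 library per stage nothing was tested. Intervals are 95% and cover counting error alone, and stage, animals and library cannot be told apart. How many animals went into a library is not stated in the labels. The files held 6031814, 21679047 and 5794940 UMIs for NP, dpc16 and dpp42, and medians of 3119, 4300.5 and 3252 UMIs per kept cell. Kept cells numbered 1289, 3652 and 1081, against 1289, 3650 and 1081 stated by the submitters. Pairs of libraries shared 6, 1 and 4 kept barcodes, none of them a high cell.

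Sequence just upstream of the RefSeq start was drawn from RefSeq promoters on GRCm38.p6 for genes that carry the results: Col1a2 and Sparc from the rule, and 5 glandular kallikreins with higher levels in the high cells. For 10 genes looked up, 9 had an entry. The 120 bases before the start are given 5′ to 3′ on the strand of the gene. In the first pair, capitals mark CCAAT, and AGAACA or its reverse complement TGTTCT, the hexamer repeated in the response element shared by the glucocorticoid and progesterone receptors.
Col1a2 (chr6:4505498-4505617, plus strand): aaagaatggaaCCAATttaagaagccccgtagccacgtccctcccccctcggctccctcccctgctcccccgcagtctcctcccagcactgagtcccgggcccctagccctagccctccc
Sparc (chr11:55420081-55420200, minus strand): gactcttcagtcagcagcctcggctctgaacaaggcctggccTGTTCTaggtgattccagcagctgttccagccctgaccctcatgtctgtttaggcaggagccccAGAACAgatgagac
The CCAAT of Col1a2 began 109 bases before the start, and the matches to the hexamer in Sparc began 78 and 14 bases before it. Searched on both strands over 250 bases, CCAAT occurred in 33.8% and AGAACA in 16.1% of 32851 RefSeq promoters, so neither is rare.

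In the kallikreins, capitals mark the longest run shared by Klk1b1, Klk1b21, Klk1b24 and Klk1b27, which was 29 bases, and in Klk1 the 8 bases of it that this gene also held. The 8 bases were sought at any position in the window. Where Klk1 matched each of the other kallikreins best without gaps, its 8 bases did not line up with theirs. By that match they are not the same site.
Klk1 (chr7:44225240-44225359, plus strand): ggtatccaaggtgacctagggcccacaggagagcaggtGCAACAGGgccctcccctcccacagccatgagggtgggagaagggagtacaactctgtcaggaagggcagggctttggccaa
Klk1b21 (chr7:44102172-44102291, plus strand): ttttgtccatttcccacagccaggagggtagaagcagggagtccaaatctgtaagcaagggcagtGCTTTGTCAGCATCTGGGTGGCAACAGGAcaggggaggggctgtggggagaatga
Klk1b24 (chr7:44188116-44188235, plus strand): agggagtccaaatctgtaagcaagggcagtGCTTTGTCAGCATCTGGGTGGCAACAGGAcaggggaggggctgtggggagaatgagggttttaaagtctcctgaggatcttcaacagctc
Klk1b27 (chr7:44052170-44052289, plus strand): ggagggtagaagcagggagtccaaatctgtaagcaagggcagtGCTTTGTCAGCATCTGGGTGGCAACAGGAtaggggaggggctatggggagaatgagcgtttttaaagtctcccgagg
Klk1b1 (chr7:43966631-43966750, plus strand): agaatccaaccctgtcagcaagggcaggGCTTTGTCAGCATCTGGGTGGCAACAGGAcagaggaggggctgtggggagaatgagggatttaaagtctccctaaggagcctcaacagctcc
Slid along each other without gaps, the 250 upstream bases of Klk1b21 and Klk1b24 matched at 97.7% of 215 positions. The other 9 pairs matched at 55.3 to 70.4%. AGAACA was found in 1 of the 5 kallikrein windows, that of Klk1b24, beginning 237 bases before the start. These genes lie together on chromosome 7, and transcripts of such close copies can be assigned to the wrong copy, so their single levels are uncertain and the family sum is the safer value.

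The high cells were the upper end of a continuous range. The sum of Col1a1, Col1a2 and Sparc was 10.0% of UMIs in the lowest, 13.1% in the median and 20.7% in the highest of the 132 cells. The nearest cells inside the threshold had 10.01, 10.06 and 10.07%, and the nearest that met the 4 limits outside it had 9.98, 9.97 and 9.86%. There were 29 high cells between 10 and 11%, and 29 cells between 9 and 10% that met the limits. The 4 limits left out a further 226 dpc16 cells over the same threshold, 138 of them through Eln and Mfap4, 47 through Ctla2a, Gpx3 and Plac8, 65 through Ccl2, Ccl7 and Tnfaip6, and 37 through Igfbp2. A cell could fail several limits and is counted under each. The highest sum in any fibroblast, 23.0%, was in such an excluded cell. The high cells are thus a range cut from a score with no gap at the threshold, and whether they form a separate type was not tested.

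The high cells made up 11.4% of dpc16 fibroblasts (9.64 to 13.4%, exact binomial interval) and 3.61% of dpc16 kept cells (3.03 to 4.27%). They were 0 of 101 NP fibroblasts and 0 of 110 dpp42 fibroblasts. At a floor of 3 counts these allow shares of up to 2.97 and 2.73%, and the exact intervals reach 3.59 and 3.30%. Most fibroblasts of each library did not meet the 4 limits. Among those that did, high cells were 0 of 36 in NP (exact interval up to 9.74%), 132 of 494 in dpc16 (26.7%) and 0 of 45 in dpp42 (up to 7.87%). With the 4 limits ignored, 1 of 101 NP fibroblasts, 358 of 1156 dpc16 fibroblasts (31.0%) and 0 of 110 dpp42 fibroblasts reached the threshold. The highest sums were 10.7 and 9.64% in NP, 23.0 and 21.1% in dpc16, and 9.47 and 7.68% in dpp42. Median sums over all fibroblasts were 3.33, 7.43 and 2.26%. NP and dpp42 fibroblasts had fewer UMIs, with medians of 2646 and 2418.5 against 4125.5 in dpc16. After every cell was thinned to 1900 UMIs the shares were 0, 12.2 and 0%.

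**Figure D1:**
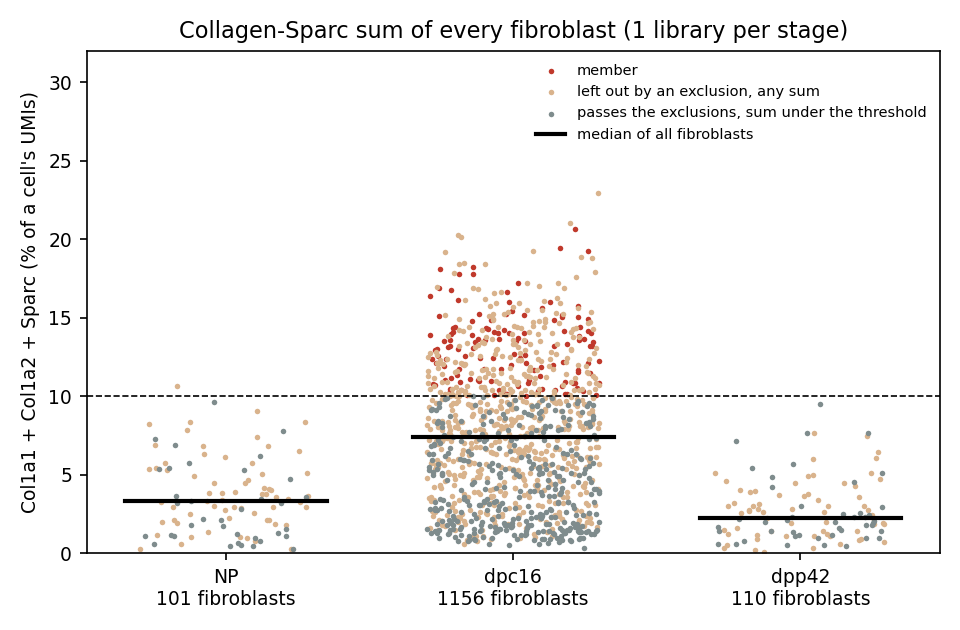
Sum of Col1a1, Col1a2 and Sparc, in percent of a cell's UMIs, for every fibroblast of each library (1 point per cell, 1 library per stage). The black bars are medians at 3.33, 7.43 and 2.26%, the dashed line is the 10% threshold, and the 132 high cells (red) lie in dpc16 among excluded cells of the same sums.

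Both collagen genes and Sparc contributed to the sum in every high cell. These values follow from the rule and are given as a description. Col1a1 held 2.07% of UMIs in the lowest, 4.47% in the median and 8.49% in the highest high cell, against 0.0657, 2.02 and 9.61% in the 1024 other dpc16 fibroblasts. Col1a2 held 3.06, 4.85 and 9.68% in high cells, against 0.126, 2.30 and 8.96% in other fibroblasts. Sparc held 1.36, 3.70 and 7.19% in high cells, against 0.0261, 1.91 and 8.33% in other fibroblasts. For all 3 genes the ranges of the 2 groups overlapped.

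Across the 132 high cells the collagen genes went together and Sparc did not follow them. Spearman's rho was 0.55 between the shares of Col1a1 and Col1a2, -0.05 between Col1a1 and Sparc and -0.00 between Col1a2 and Sparc. Sparc went with Dcn, which encodes the fibril-binding proteoglycan decorin (0.39), and Col1a1 with Col3a1 (0.37). These shares come from the same 132 cells of 1 library and share each cell's total, and the threshold on the sum bears on them. The sum itself was unrelated to depth, with a rho of 0.01 to the UMIs per cell. Sparc supplied 28.6% (28.3 to 29.0) of the 3 genes' UMIs in the high cells and 32.6% (32.5 to 32.8) in the other dpc16 fibroblasts. Over all fibroblasts its part was 19.8% (NP), 31.9% (dpc16) and 22.6% (dpp42).

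All 10 markers on the fibroblast list were detected in the high cells, but Col1a1 and Col1a2 are genes of the rule, and Col3a1, Dcn and Lum helped to define a fibroblast. Of the remaining markers, and in CPM (counts per 1000000 UMIs), Pdgfra, a growth factor receptor of fibroblasts, was at 258 CPM in high cells and 212 CPM in other fibroblasts. Pdgfrb was at 116 CPM in high cells and 121 CPM in other fibroblasts, Fn1, which encodes fibronectin, at 917 CPM in high cells and 572 CPM in other fibroblasts, and Thy1 at 333 CPM in high cells and 451 CPM in other fibroblasts. The last of the remaining markers, Fbln1, was lower in the high cells by more than 1.5-fold. The label of fibroblast rests on the detection of these markers and on the low levels of other markers. Of the other cell types, keratinocyte markers summed to 1557 CPM in high cells, against 2914 CPM in other fibroblasts, and 1 high cell held 1% or more of them, against 41 other fibroblasts. The endothelial genes Cdh5, Emcn, Tie1 and Prox1, the macrophage genes C1qa and Adgre1, the T cell gene Cd3e, the Schwann cell gene Sox10, the adipocyte gene Adipoq, the dermal papilla genes Corin and Sox2, and the bone genes Bglap and Ibsp had no UMI in the high cells. Other members of these lists did, such as 5 of 8 blood endothelial, 4 of 7 dermal papilla and 4 of 7 bone and tendon genes. The adipocyte list summed to 50.9 CPM in high cells and 39.5 CPM in other fibroblasts, and the melanocyte list to 29.1 CPM in high cells and 15.8 CPM in other fibroblasts. The skeletal muscle list, which holds Des, summed to 118 CPM in high cells and 48.7 CPM in other fibroblasts. The mast list was at 5.46 CPM in high cells and 3.63 CPM in other fibroblasts, and the mural list at 155 and 151 CPM. The remaining lists were lower in the high cells, at 10.9 to 338 CPM, against 32.05 to 574 CPM in the other fibroblasts. The 338 CPM is the sum of the T and NK cell list, which also holds Thy1. Median depth was 3961 UMIs in high cells and 4129.5 in other fibroblasts, and median mitochondrial shares were 3.30% in high cells and 3.22% in other fibroblasts. The highest UMI count of a high cell was 8465, and no doublet caller was run.

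Within dpc16 there were 2 comparisons, of the high cells with the 1024 other fibroblasts and with the 226 excluded cells of the same sum, which are among those 1024. UMIs were summed over cells, and a gene was measured with 50 CPM in 1 sum and 50 UMIs over both. It was called higher or lower at a ratio of 1.5 either way. The rule was built on this contrast, so the calls describe the cells and show no more. Against the other fibroblasts 130 of 2509 measured genes were higher (5.18%) and 348 lower (13.9%), with a median log2 ratio of -0.09. With the genes of the rule left out of the totals, 233 were higher and 319 lower, so that 42.2% of calls were higher in place of 27.2%. Against the excluded cells of the same sum 134 of 2363 measured genes were higher (5.67%) and 176 lower (7.45%), with a median of 0.02.

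Of the fibrillar collagens outside the rule, Col3a1 and Col5a1 were higher in the high cells than in the other fibroblasts, 2 of 4 measured, and none was lower. With Col1a1 and Col1a2, which the rule chose, the list had 4 higher of 6. Col3a1, the partner of type I collagen in dermal fibrils, had 15088 CPM in the lowest, 37221 CPM in the median and 69185 CPM in the highest high cell, against 0, 21469 and 87919 CPM in the other fibroblasts. The summed level was 38130 CPM in high cells, against 22627 CPM in other fibroblasts, a ratio of 1.69 (1.66 to 1.71). Col5a1, a chain of the type V collagen that sets fibril width, was at 802 CPM in high cells and 485 CPM in other fibroblasts (1.65, 1.49 to 1.83). Col5a2, another chain of type V, was at 1608 CPM in high cells and 1151 CPM in other fibroblasts, a ratio of 1.40 below the limit. Over the excluded cells these ratios were 1.01, 1.08 and 1.01, and none of the 6 was called.

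Most non-fibrillar collagens went the other way. Of 10 measured, 7 were lower and 1 was higher (median log2 ratio -1.25). Chains of type VI collagen, which forms beaded filaments around cells, were low together. Col6a1 had 104 CPM in the high cells and 479 CPM in the other fibroblasts (ratio 0.216, 0.163 to 0.281), Col6a2 92.8 CPM in high cells and 342 CPM in other fibroblasts, and Col6a3 126 CPM in high cells and 369 CPM in other fibroblasts. A Col6a1 UMI was seen in 28.0% of high cells, against 57.8% of other fibroblasts and 9.68% of dpc16 keratinocytes, which mark the level of free RNA. Type VI was also low beside the excluded cells, with ratios of 0.318, 0.351 and 0.512. The basement membrane genes Col4a1 and Col4a2 had ratios of 0.512 and 0.520 over the other fibroblasts, but 1.09 and 1.02 over the excluded cells. Col7a1, whose product anchors epidermis to dermis, and Col14a1, whose product binds fibril surfaces, were the other lower genes. Col18a1 was the higher one (1.55). Col16a1 was higher as well when the genes of the rule were left out of the totals, which made 2 higher and 7 lower of 11.

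Enzymes of procollagen processing were called in both directions. Adamts2, which encodes the protease that trims the amino end of procollagen, was detected in all 132 high cells and in 916 of 1024 other fibroblasts. After thinning these shares were 97.0% of high cells and 77.3% of other fibroblasts, and 1.27% of keratinocytes held a UMI. Its level per cell was 309 CPM in the lowest, 1876 CPM in the median and 4151 CPM in the highest high cell, against 0, 1007 and 6192 CPM in the other fibroblasts. The sums gave 1925 CPM in high cells and 1117 CPM in other fibroblasts, a ratio of 1.72 (1.61 to 1.84), and the excluded cells had 1825 CPM (1.05). Pcolce2, an enhancer of procollagen cleavage, was also higher (995 CPM in high cells and 612 CPM in other fibroblasts). Lox, which encodes a crosslinking lysyl oxidase, was lower at 129 CPM in high cells and 241 CPM in other fibroblasts (0.535, 0.415 to 0.680), and lower still beside the excluded cells, at 311 CPM (0.415). Bmp1, which encodes the protease for the other end of procollagen, had a ratio of 1.33. In all 2 of 7 measured genes of this list were higher and 1 lower. The list had 3 higher, with Tgm2 added, and 1 lower of 8 when the genes of the rule were left out of the totals. None of 7 was higher over the excluded cells, and 1 was lower.

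Of 16 measured genes for collagen modification, folding and export, 2 were higher, 1 was lower and 13 were neither, beside 2031 neither of all 2509 measured genes. Serpinh1 was at 1639 CPM in high cells and 1445 CPM in other fibroblasts (1.13, 1.06 to 1.22) and P4hb, a subunit of the prolyl hydroxylase, at 240 CPM in high cells and 250 CPM in other fibroblasts. The higher ones were Fkbp14, a folding enzyme of the endoplasmic reticulum, and Creb3l1, a transcription factor that acts on collagen genes (266 CPM in high cells and 162 CPM in other fibroblasts). The lower one was P4ha1, the catalytic subunit of the prolyl hydroxylase (43.7 CPM in high cells and 83.5 CPM in other fibroblasts). Sec23a was higher as well when the genes of the rule were left out of the totals, which made 3 higher and 1 lower of 17. Beside the excluded cells 0 of 17 measured genes of this list were higher and 1 was lower. All 25 measured secretory pathway genes were called neither way, with a median log2 ratio of 0.00. General chaperones and genes of the unfolded protein response were lower in 7 of 14 and higher in none (median -0.58). Among these were Hspa5, the main chaperone of the endoplasmic reticulum, at 280 CPM in high cells and 540 CPM in other fibroblasts (0.519, 0.438 to 0.610), Calr (0.601), Pdia3 (0.577) and Herpud1 (0.599). Hspa5 was also lower beside the excluded cells, at 488 CPM (0.574).

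**Figure D2:**
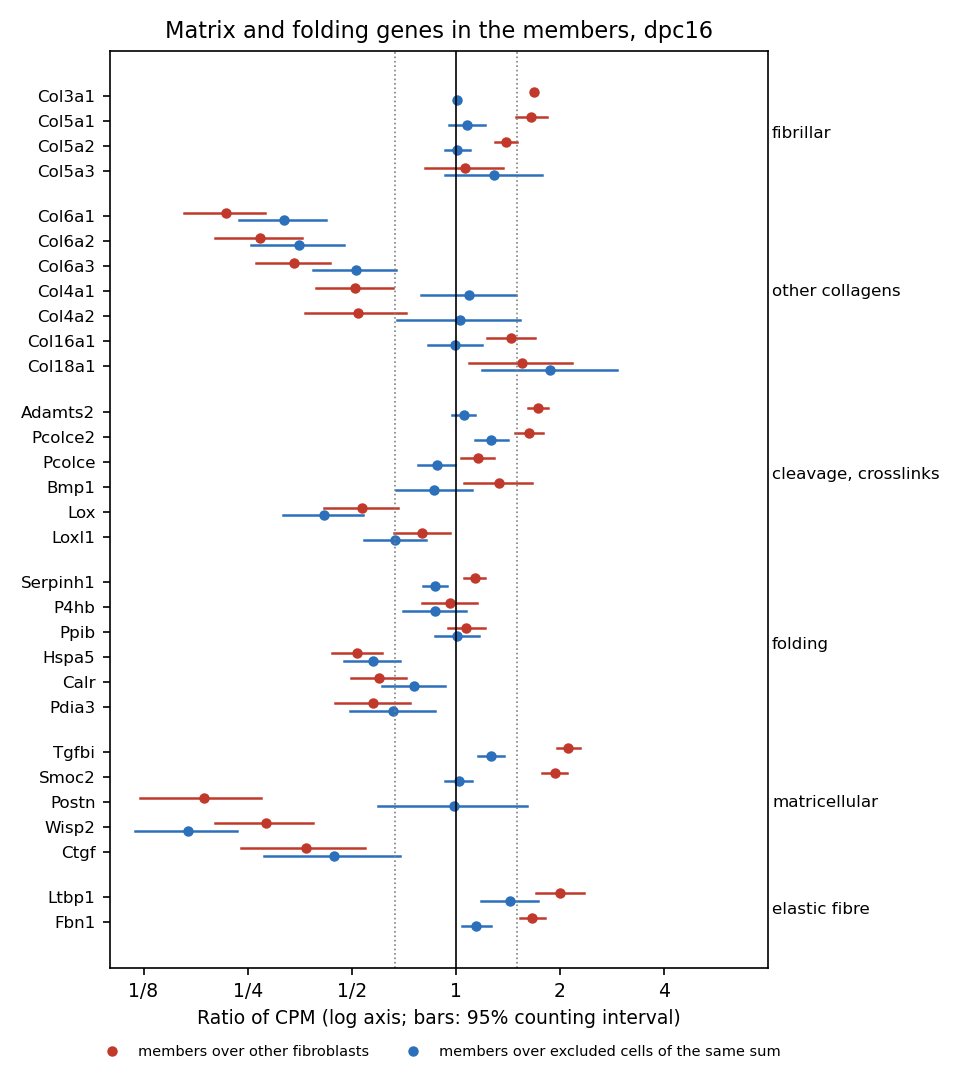
Ratio of CPM in the high cells over the other dpc16 fibroblasts (red) and over the excluded cells of the same sum (blue), on a log axis with 95% counting intervals. Dotted lines mark the 1.5-fold limits. Col3a1 is at 1.69 in red and 1.01 in blue, while Col6a1 is at 0.216 and 0.318 and Hspa5 at 0.519 and 0.574.

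The partners of the fibril differed from gene to gene. Of 12 measured small proteoglycans and fibril partners none was higher and 3 were lower. Dcn was at 17898 CPM in high cells and 13592 CPM in other fibroblasts (1.32) and Lum, which encodes lumican, at 2710 CPM in high cells and 1994 CPM in other fibroblasts (1.36). Biglycan (Bgn) was at 2214 CPM in high cells and 2565 CPM in other fibroblasts (0.863). Prelp and Thbs1 were lower, and Fmod, which encodes fibromodulin, had no UMI in the high cells. Thbs4 took the place of Prelp among 3 lower of 13 when the genes of the rule were left out of the totals. Among matricellular genes, Tgfbi, a collagen-binding adhesion protein, was at 1555 CPM in high cells and 736 CPM in other fibroblasts (2.11, 1.96 to 2.28), and Smoc2, a relative of Sparc, at 1282 CPM in high cells and 663 CPM in other fibroblasts (1.93). With Sparc itself, chosen by the rule, these were the 3 higher of 11 measured. The 6 lower ones included Postn, which encodes periostin, at 49.1 CPM in high cells and 263 CPM in other fibroblasts (0.186), Wisp2 at 72.8 CPM in high cells and 258 CPM in other fibroblasts (0.282) and Ctgf at 47.3 CPM in high cells and 128 CPM in other fibroblasts (0.369). Beside the excluded cells of the same sum 0 of 9 measured genes of this list were higher, so neither Tgfbi nor Smoc2 was called, and 4 were lower. Postn was as low in the excluded cells, at 49.8 CPM (0.987, 0.595 to 1.60).

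Fbn1 and Ltbp1 were the higher genes of the elastic fibre list. Fbn1, which encodes fibrillin of the microfibril, was at 1235 CPM in high cells and 743 CPM in other fibroblasts (1.66, 1.53 to 1.81), and Ltbp1, which tethers latent TGF-beta to it, at 355 CPM in high cells and 177 CPM in other fibroblasts (2.0, 1.70 to 2.34). Eln and Mfap4 were lower by choice, since the rule capped them, and Fbln1 was lower at 81.9 CPM in high cells and 168 CPM in other fibroblasts. This made 2 higher and 3 lower of 14, and over the excluded cells 1 higher and 3 lower of 14. With the genes of the rule left out of the list and the totals, 4 were higher than in the other fibroblasts (Fbn1, Efemp2, Emilin2 and Ltbp1) and 1 was lower of 12. Of 15 matrix breakdown genes 1 was higher and 3 were lower. Mmp27, a matrix metalloprotease, was at 104 CPM in high cells and 59.0 CPM in other fibroblasts, while Mmp3 was at 109 CPM in high cells and 302 CPM in other fibroblasts. Ctsk, which encodes the collagen-degrading cathepsin K, was at 1915 CPM in high cells and 1292 CPM in other fibroblasts, a ratio of 1.48 just under the limit. It was called higher when the genes of the rule were left out of the totals, which made 2 higher and 3 lower of 16 breakdown genes. Of 7 TGF-beta genes 2 were higher, the receptor Tgfbr2 at 611 CPM in high cells and 336 CPM in other fibroblasts (1.82) and Tgfbi, and 3 were lower, Ctgf and Cilp among them; with the genes of the rule left out of the totals, 3 were higher and 3 lower of 8. Of 5 hyaluronan and large proteoglycan genes none was higher and 3 were lower, one of them the capped Tnfaip6.

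Glandular kallikreins, serine proteases best known from salivary gland and kidney, were higher in the high cells. Of 14 listed, 9 had no UMI in the high cells, and all 5 measured were higher. The family summed to 4033 CPM in the high cells and 875 CPM in the other fibroblasts, a ratio of 4.61 (4.38 to 4.86). It was at 1711 CPM in the excluded cells of the same sum (2.36, 2.21 to 2.51). Klk1 was at 1261 CPM in high cells and 282 CPM in other fibroblasts (4.47, 4.07 to 4.90), Klk1b21 at 1208 CPM in high cells and 194 CPM in other fibroblasts (6.21), Klk1b24 at 1115 CPM in high cells and 290 CPM in other fibroblasts (3.85), Klk1b27 at 362 CPM in high cells and 81.0 CPM in other fibroblasts (4.47) and Klk1b1 at 87.3 CPM in high cells and 25.6 CPM in other fibroblasts (3.41). Over the excluded cells the ratios were 2.07, 3.26, 2.01, 3.12 and 1.47, of which the last was below the limit.

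These levels were spread very unevenly over the cells. No kallikrein UMI was found in 53 of the 132 high cells, 31 had 1 to 9, 34 had 10 to 49, and 14 had 50 or more. The median was 2.5 and the highest 210. Those 14 cells held 57.0% of the family's 2217 UMIs. Klk1 alone was at 0 in the lowest and the median high cell and 24489 CPM in the highest, and the other fibroblasts ranged from 0, with a median of 0, to 30938 CPM. Without the cells of 50 or more, in both groups, the family was at 1984 CPM in high cells and 486 CPM in other fibroblasts.

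Any kallikrein UMI was seen in 59.8% of high cells, 24.8% of other fibroblasts, 39.4% of excluded cells and 3.02% of dpc16 keratinocytes. Thinned to 1900 UMIs per cell, the shares were 58.3, 20.0, 34.1 and 0.794%. Median depths were 3961, 4129.5, 4270.5 and 5071 UMIs. The keratinocyte share is that of a cell type that should lack these transcripts, and the other 3 shares were above it. UMIs of at least 2 different kallikreins were found in 63 of the 79 high cells with any, which the uncertain assignment between close copies can raise.

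**Figure D3:**
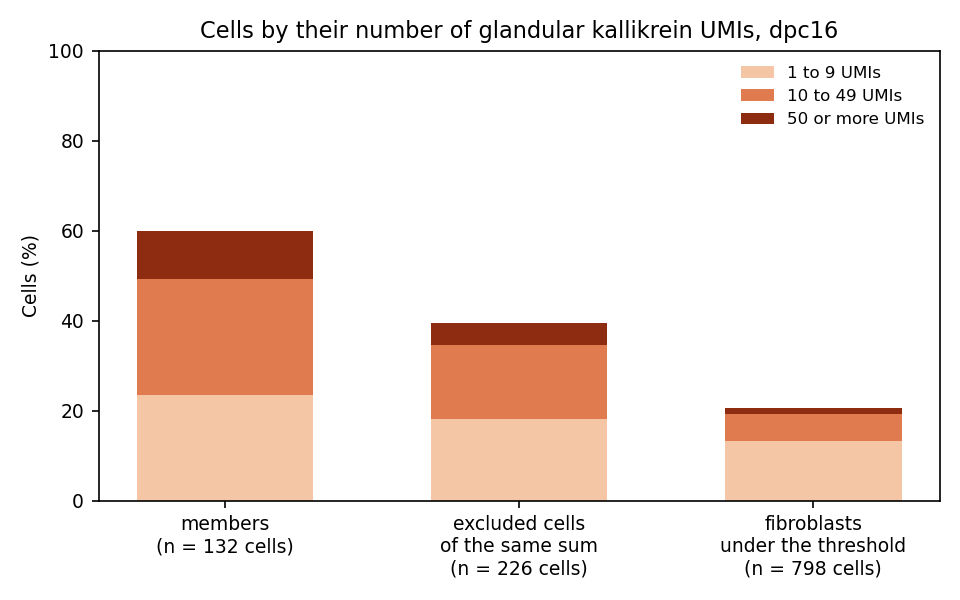
Share of dpc16 fibroblasts with 1 to 9, 10 to 49, and 50 or more glandular kallikrein UMIs; the rest of each column had none. High cells had 23.5, 25.8 and 10.6% in these classes, excluded cells of the same sum 18.1, 16.4 and 4.87%, and fibroblasts under the threshold 13.3, 5.89 and 1.5%.

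High cells with and without a kallikrein UMI had close levels of Adamts2 and Col3a1. After thinning, 77 had one and 55 had none, with median sums of 13.2% in those with and 12.4% in those without. Adamts2 was at 2030 CPM (1806 to 2275) in those with and 1847 CPM (1596 to 2127) in those without, and Col3a1 at 37895 CPM in those with and 40048 CPM in those without. The counting intervals of Smoc2, Apoe, Mfap4 and Col1a1 did not overlap, the last pair being genes of the rule. Smoc2 was at 1757 CPM (1548 to 1985) in those with and 699 CPM (548 to 878) in those without. Apoe, which encodes apolipoprotein E, was at 3438 CPM (3144 to 3752) in those with and 2057 CPM (1792 to 2352) in those without. Mfap4 was at 813 CPM (674 to 973) in those with and 498 CPM (372 to 653) in those without, and Col1a1 at 46589 CPM (45490 to 47709) in those with and 43502 CPM (42247 to 44786) in those without. Pgr, Pi15 and Des, at 178, 191 and 157 CPM in those with and 105, 67.0 and 86.1 CPM in those without, rested on 7 to 28 UMIs in each group, and their intervals overlapped. These genes were chosen after values had been seen.

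Pgr, the gene of the progesterone receptor, was 1 of the 12 with the highest ratios. A UMI was seen in 40.2% of high cells, 17.1% of other fibroblasts and 0.159% of keratinocytes, and in 22.0, 8.2 and 0% after thinning. No cell of either fibroblast group had more than 3 UMIs. The summed level was 151 CPM (120 to 187) in high cells and 46.6 CPM (40.6 to 53.2) in other fibroblasts, a ratio of 3.24 (2.49 to 4.19). It was 59.5 CPM in the excluded cells (2.54, 1.80 to 3.59). Of the other hormone receptors, the growth hormone receptor gene Ghr had a ratio of 1.25, and Pth1r, the parathyroid hormone receptor gene, was lower at 20.0 CPM in high cells and 51.9 CPM in other fibroblasts. The list had 1 higher and 1 lower gene of 6, and 2 higher, with the thyroid hormone receptor gene Thra, when the genes of the rule were left out of the totals.

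The other genes with the highest ratios covered signalling and structure. Ramp3, which encodes a partner protein of the calcitonin-family receptors, was at 386 CPM in high cells and 141 CPM in other fibroblasts (2.74, 2.34 to 3.21) and was seen in 48.5% of high cells and 24.4% of other fibroblasts. Pi15, which encodes a secreted protein, was at 136 CPM in high cells and 39.5 CPM in other fibroblasts (3.45). Adcy1, an adenylyl cyclase, was at 118 CPM in high cells and 34.4 CPM in other fibroblasts (3.44). Prex1, an activator of Rac, was at 129 CPM in high cells and 48.3 CPM in other fibroblasts (2.67). Des, which encodes the intermediate filament protein desmin, was at 116 CPM in high cells and 45.1 CPM in other fibroblasts (2.58), while the full mural list summed to 155 CPM in high cells and 151 CPM in other fibroblasts. Prkce, a protein kinase C, had a ratio of 2.38 and Sema3b, a secreted semaphorin, 2.30. Over the excluded cells these 7 ratios were 2.44, 2.69, 2.58, 1.61, 2.84, 1.83 and 1.48. Named after their values were seen, Cyp2f2, a cytochrome P450, was at 1062 CPM in high cells and 473 CPM in other fibroblasts (2.25), Pthlh, the gene of parathyroid hormone-related protein, at 129 CPM in high cells and 56.6 CPM in other fibroblasts (2.28), and Pgf, which encodes placental growth factor, at 85.5 CPM in high cells and 20.9 CPM in other fibroblasts (4.08, 2.82 to 5.84). Over the excluded cells their ratios were 1.75, 1.35 (0.981 to 1.85) and 2.83, so Pthlh was below the limit there.

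Fmod, Coch, Tnmd and Mgp had at most 5 UMIs each over all 132 high cells. Fmod had 0 UMIs in high cells and 640 in other fibroblasts, and was at least 25.1-fold lower when the high cells are set to a floor of 3 counts over their sum. Coch, which encodes the matrix protein cochlin, had 3 UMIs in high cells and 2305 in other fibroblasts, or 5.46 CPM in high cells and 493 CPM in other fibroblasts (ratio 0.0111, 0.0023 to 0.0324). Tnmd, a tendon-associated membrane protein, was at 3.64 CPM in high cells and 143 CPM in other fibroblasts, and Mgp, which encodes matrix Gla protein, at 9.10 CPM in high cells and 385 CPM in other fibroblasts. Pi16 was at 27.3 CPM in high cells and 214 CPM in other fibroblasts, Crabp1 at 76.4 CPM in high cells and 346 CPM in other fibroblasts and Gpm6b at 61.8 CPM in high cells and 252 CPM in other fibroblasts. Fmod was seen in 40, Coch in 130 and Tnmd in 146 of the 1024 other fibroblasts. When fibroblasts were taken at 2% or more in place of 1%, 1102 of 1156 dpc16 fibroblasts stayed. The other fibroblasts then held 354 Fmod and 1390 Coch UMIs, so a small part of the cells supplied much of both. Fmod and Coch were as low in the excluded cells, with Fmod at 0 CPM and Coch at 1.95 CPM, whereas Mgp was at 49.8 CPM there. Ratios over the excluded cells were 0.110 for Tnmd, 0.359 for Pi16, 0.450 for Gpm6b and 0.718 (0.491 to 1.03) for Crabp1.

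Ccl21a and Cd74 are marks of other cells. Ccl21a, a chemokine of lymphatic endothelium with near-identical gene copies, was at 43.7 CPM in high cells and 337 CPM in other fibroblasts under 1 of its 2 gene IDs, and 1 other fibroblast alone held 405 of its UMIs. Cd74, an antigen presentation gene, was at 32.7 CPM in high cells and 168 CPM in other fibroblasts, with 217 UMIs in 1 other fibroblast. With the threshold at 8%, the log2 ratio of Cd74 was -0.51 in place of -2.32, which ends its call, and that of Ccl21a was -1.49 in place of -2.92. The other fibroblasts included 7 cells with 1% or more of lymphatic markers and 7 with 1% or more of macrophage and dendritic markers, and the high cells 0 of each. Erythroid markers summed to 67.3 CPM in high cells and 479 CPM in other fibroblasts. The part of such cells in these low ratios was not tested.

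Inflammatory and early-response genes were called lower or neither way. Of 9 inflammatory fibroblast genes 7 were lower, with Ccl2, Ccl7 and Tnfaip6 capped by the rule. Cxcl1, Cxcl12 and Has1 had no limit of their own. Cxcl1, a neutrophil attractant, was at 104 CPM in high cells and 680 CPM in other fibroblasts (0.152, 0.115 to 0.198). Cxcl12 was at 61.8 CPM in high cells and 167 CPM in other fibroblasts (0.370). Has1, a hyaluronan synthase, was at 70.9 CPM in high cells and 139 CPM in other fibroblasts (0.511). Cxcl1 was also low beside the excluded cells (0.166). Both comparison groups include cells left out for Ccl2, Ccl7 and Tnfaip6, so neither ratio of Cxcl1 is independent of the rule. Against only those other fibroblasts that met the limits, its log2 ratio was -1.63 in place of -2.70. Cxcl1 was thus still lower there, but by less. Cxcl12 and Has1 were not run singly in that setting. Of 17 immediate early genes 8 were lower, or 7 with the genes of the rule left out of the totals. Among them were Junb at 611 CPM in high cells and 1088 CPM in other fibroblasts (0.562) and Atf3 at 302 CPM in high cells and 494 CPM in other fibroblasts (0.611). Of 14 heat shock genes 3 were lower, and both metallothioneins were neither. Hspa1a was at 4029 CPM in high cells and 4137 CPM in other fibroblasts.

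In the insulin-like growth factor list 4 of 11 were lower and none higher. Igf1 was at 404 CPM in high cells and 293 CPM in other fibroblasts (1.38), and Igfbp3, Igfbp4 and Igfbp5, genes of binding proteins, were at 3.64, 20.0 and 204 CPM in high cells, against 99.8, 91.2 and 342 CPM in other fibroblasts. Igfbp2 was the fourth, by the rule. Of 8 reticular and hypodermal fibroblast genes 4 were lower (Mgp, Pi16, Col14a1 and the capped Plac8), and of 6 papillary ones 1 was lower, Crabp1. With the genes of the rule left out of the lists and totals, 2 papillary genes were higher (Dpp4 and Axin2) and 1 lower of 8, and 1 reticular gene was higher (Dpp4) and 3 lower of 6. Dpp4 is on both lists and was at 69.1 CPM in high cells and 47.6 CPM in other fibroblasts (1.45, 1.00 to 2.05). Of 12 fibroblast transcription factor genes Ebf1 was higher, at 642 CPM in high cells and 417 CPM in other fibroblasts (1.54), and Prrx2, Zeb1 and Foxp1 were lower. Prrx2 was no longer called lower when the genes of the rule were left out of the totals. Of 2 measured genes for ATF4 targets and proline and glycine synthesis 1 was lower. Of 22 cell cycle genes 1 was measured and called neither way. After thinning, 5.30% of high cells, 6.35% of other fibroblasts and 15.7% of keratinocytes had UMIs of at least 2 cell cycle genes, and Mki67, the standard proliferation marker, was seen in 0 of 132 high cells, which allows a share of cells with a UMI of up to 2.27%.

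Over the range of the sum, the levels of Adamts2, Dcn and Klk1 differed between bins well below the threshold. The 494 dpc16 fibroblasts that met the 4 limits were put in 6 bins of the sum in steps of 2.5 percentage points, the last one open above, with 131, 85, 77, 69, 59 and 73 cells. The last pair of bins holds the high cells. Adamts2 was at 372, 828, 1059, 1645, 1921 and 1927 CPM from the lowest to the highest bin. Dcn was at 6942, 10464, 13499, 14930, 17557 and 18169 CPM. Klk1 was at 16.1, 55.6, 326, 919, 780 and 1643 CPM, and Klk1b21 at 17.7, 93.4, 253, 538, 1063 and 1323 CPM. Pgr was at 24.2, 37.9, 92.7, 66.4, 135 and 163 CPM.

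Coch and Fmod behaved differently. Coch was at 2120 and 2040 CPM in the lowest pair of bins and at 3.27 to 8.43 CPM in the other 4. Fmod was at 599 and 667 CPM and then at 0 in all 4. Col6a1 was at 469, 439, 450, 304, 119 and 91.5 CPM, and Hspa5 at 575, 490, 318, 370, 238 and 314 CPM.

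**Figure D4:**
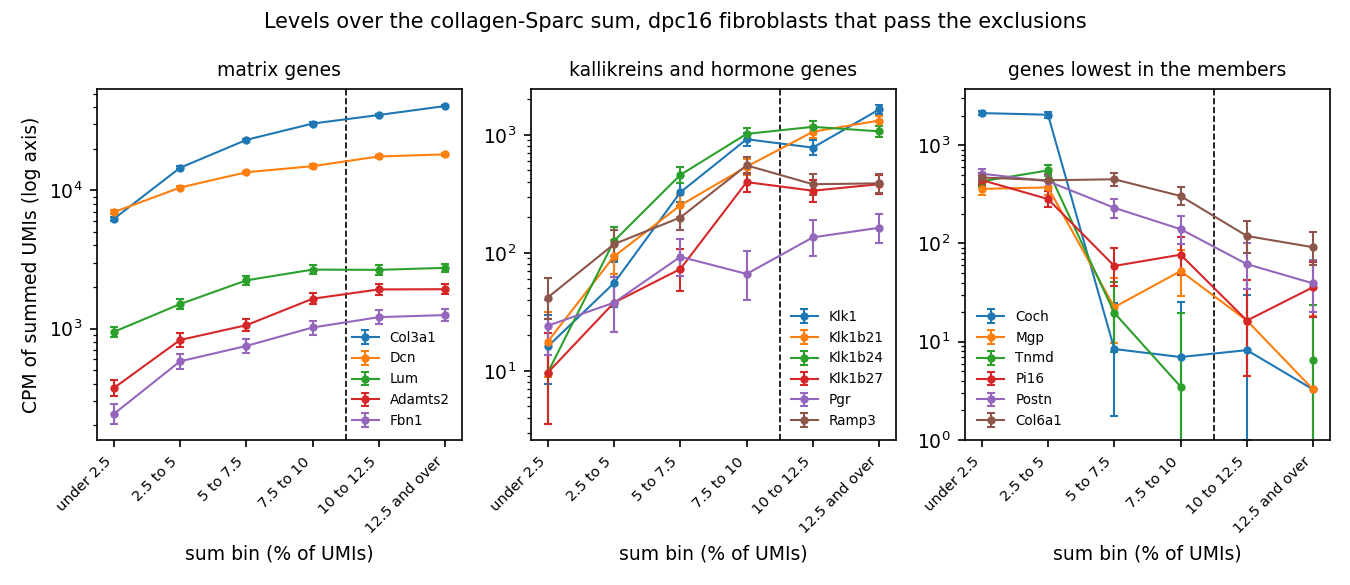
CPM of summed UMIs (log axis, 95% counting intervals) in 6 bins of the collagen and Sparc sum, for dpc16 fibroblasts that meet the 4 limits; the dashed line is the 10% threshold and bins at 0 are not drawn. Adamts2 runs from 372 to 1927 CPM and Klk1 from 16.1 to 1643 CPM, while Coch is at 2120 and 2040 CPM in the lowest pair of bins and under 10 CPM after them.

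No high cell existed in NP or dpp42, so the fibroblasts of the 3 libraries are given side by side, in the order NP, dpc16 and dpp42. Col1a1 was at 12012, 24559 and 8272 CPM, Col1a2 at 17523, 26669 and 12114 CPM and Sparc at 7298, 23984 and 5966 CPM. Adamts2 was at 425 (353 to 509), 1202 (1172 to 1232) and 308 CPM (247 to 379). Col3a1 was at 16006, 24257 and 15984 CPM. Serpinh1 was at 2006, 1466 and 1585 CPM and Dcn at 16750, 14044 and 19581 CPM, so neither had its highest level in dpc16. The Col1a1 and Col1a2 share of the median high cell, 9.06% of UMIs, was reached by 0 of 101, 153 of 1156 and 0 of 110 fibroblasts, and its Sparc share, 3.70%, by 0, 233 and 0.

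Kallikreins had 11, 6310 and 0 UMIs over the fibroblasts of the 3 libraries. They were seen in 5 of 101, 333 of 1156 and 0 of 110 cells, or at 39.0, 1207 and 0 CPM. Ramp3 was at 21.3, 166 and 7.0 CPM. Pgr was at 56.7 (32.4 to 92.1), 57.6 (51.2 to 64.4) and 7.0 CPM (0.848 to 25.3), so the intervals of NP and dpc16 overlapped. Pi15 was at 121, 49.7 and 42.0 CPM. The EGFP reporter was at 46.1 (24.5 to 78.8), 1.34 (0.538 to 2.76) and 59.5 CPM (34.7 to 95.2), and 1 of 132 high cells had a UMI of it. In dpc16 the reporter was lower in fibroblasts than in keratinocytes, at 8.48 CPM. In these sums, fewer cells with a transcript and less of it per cell cannot be told apart.

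**Figure D5:**
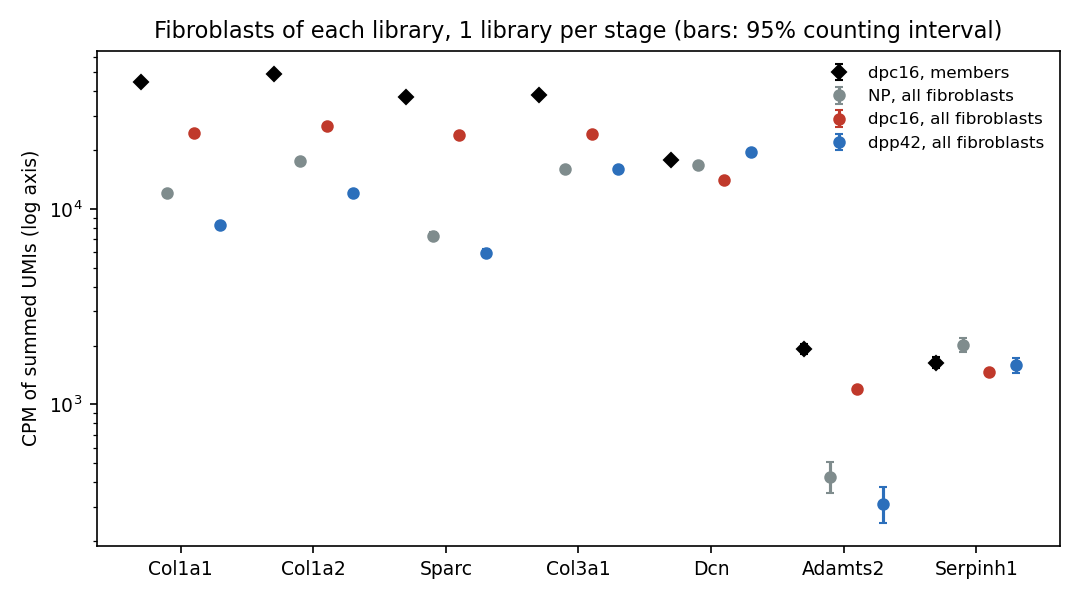
CPM of summed UMIs (log axis, 95% counting intervals) of 7 matrix genes in the high cells (black diamonds) and in all fibroblasts of NP, dpc16 and dpp42, 1 library per stage. Sparc is at 37524 CPM in the high cells and at 7298, 23984 and 5966 CPM in the libraries, while Serpinh1 stays between 1466 and 2006 CPM in all 4.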

How the data were processed

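Single-cell RNA libraries of trypsin-separated abdominal dermis were made with 10x Chromium version 2 chemistry, per the labels' protocols. The submitters' processing notes name Cell Ranger 2.2.0 and the build mm10 (GRCm38). For the annotation release and the cell calling, nothing is stated. The deposited files contain raw UMI counts per gene and barcode, 28693 genes, with no normalization by the authors. Every barcode has at least 1908 UMIs. Cells with at least 200 genes and at most 10% mitochondrial UMIs were kept. No clustering, integration or doublet calling was used.

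Levels are UMIs summed over cells and scaled to 1000000 UMIs (CPM); their intervals are exact Poisson. Ratios have exact conditional binomial and shares exact Clopper-Pearson intervals, all at 95%. Before a log2 ratio, 0.5 UMI was added to both sums. A count of 0 was given a floor of 3 counts, and the share that a 0 is said to allow comes from this floor unless an exact interval is named. PCR duplicates are removed by UMIs, and intervals cover counting error only. Thinning to 1900 UMIs used seed 1. Keratinocytes had 1% or more of UMIs from Krt5, Krt14, Krt1 and Krt10 and under 1% from the fibroblast genes.

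Named genes are those of the rule and its markers, the 12 highest and 12 lowest log2 ratios among genes with 100 CPM, and up to 8 members of each list by level. Genes of the rule, ribosomal, mitochondrial, globin and clone-named genes, and genes whose level in the higher sum was under 0.2 times that in keratinocytes, were not ranked. Col18a1, Foxp1 and others outside this were named to spell out small counts, and those said to be named after their values were seen lie outside it too. Members and lists were chosen with earlier results of these data known. Scripts were tested on simulated data. Tools were Python 3.11.15, numpy 2.4.6, scipy 1.17.1, pandas 2.3.3 and matplotlib 3.10.9.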

Additional observations from a re-analysis of the deposited data

How the results depend on the processing

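The share of high cells among dpc16 fibroblasts was 16.4% at a threshold of 8%, 7.53% at 12% and 31.0% without the 4 limits. It stayed within its interval with fewer mitochondrial UMIs, more genes, thinning, or fibroblasts taken at 2%, and NP and dpp42 had at most 1 cell in any setting. Of 130 higher and 348 lower genes, 30 and 145 passed 2-fold, and 789 and 1662 of 7729 passed 1.5-fold when 10 CPM and 20 UMIs were enough. Against other fibroblasts that also met the 4 limits, 216 were higher and 553 lower. With the genes of the rule left out of the totals 233 were higher, and the ratios of the highest over the lowest bin became 7.57 for Col3a1, 3.03 for Dcn and 3.36 for Lum in place of 6.55, 2.62 and 2.90. For 28 genes, the 24 ranked ones with Adamts2, Col1a1, Col1a2 and Sparc, none changed direction in 7 settings, though 13 moved at a threshold of 8% and 13 against fibroblasts that met the limits, and the call of Cd74 ended at 8%. The other named genes were not run singly. Comparisons of high cells between libraries could not be made, since NP and dpp42 hold none, and no fit or block applies to 1 library per stage. No paired analysis was possible because each stage has 1 library and no test was run. Depth limits genes near the minimum of 50 CPM, whose ratios rest on few UMIs in the high cells.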
